A study of Mus musculus with 6 samples.

Results

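The 9 genes described here encode junction proteins of the blood-retina barrier. Most belong to junctions of the retinal pigment epithelium (RPE), the cell layer behind the photoreceptors, and Cldn5 chiefly to those of retinal vessels. They are the tight junction genes Cldn19, Cldn5, Ocln, Tjp1 and F11r and the adherens junction genes Cdh1, Cdh2, Cdh3 and Ctnnb1. They were listed by name with earlier results of these data known, though no measured value served as a criterion, and all 9 were among the 18193 genes measured. They were covered by 15 probe sets with a single gene symbol. Each gene is given by its probe set of the highest mean over all 6 arrays, and the other 6 probe sets serve as a check.

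RNA was taken from the RPE of BALB/c mice, an albino strain, and hybridised to Affymetrix mouse arrays. All mice spent 1 week in the dark. The 3 dark-adapted arrays come from mice that had no further light treatment by the labels, and the 3 light-damaged arrays from mice exposed to 6000 lux of white fluorescent light over 1.5 h and sampled 24 h later. The labels give no age, sex, genetic change or number of animals per sample, so p-values cover only the spread among these samples, and that spread could be technical.

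The RPE forms the outer part of the blood-retina barrier. Claudins and occludin line the contact between neighbouring cells and set which ions and solutes pass between them, and the scaffold protein ZO-1 ties them to actin. Below this belt, cadherins hold the cells together through their outer domains and bind beta-catenin inside the cell. Vessels of the retina form the inner part of the barrier with junctions of their own, in which claudin-5 is the main claudin.

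Replicate 1 stood apart in both groups. Its Gapdh control probe sets, which report on RNA integrity, differed between the 3′ and 5′ ends by 2.45 and 2.48 on the log2 scale, against 1.54 to 1.80 on the other 4 arrays. Same-numbered arrays shared deviations from their group means, so differences come from limma with the replicate number as a block, adjusted by Benjamini-Hochberg over all genes, and the fit without the block is given where it changes a call. A gene is called at an adjusted p under 0.05. RPE markers were bright in both groups, with Rpe65, the visual cycle isomerase, at 14.38 ± 0.23 (SD, n = 3) in the dark-adapted and 13.77 ± 0.59 in the light-damaged group on the log2 scale. Photoreceptor transcripts were bright too, with the rod arrestin gene Sag at 14.46 ± 0.09 and 14.36 ± 0.12.

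None of the 9 junction genes passed the test for a change after light damage. With the replicate block limma called 0 of 9, against 908 of 18193 genes or 4.99%, and at an unadjusted p under 0.05 there was 1 of 9, Cdh2, against 19% of all genes. Without the block 0 of 9 had an unadjusted p under 0.05, against 5.94% of all genes, and 0.0495% of all genes were called. The arrays of the groups overlapped for all 9, whereas 10.3% of all genes had separate groups. Light-damaged arrays were higher in 3 of 3 pairs for Cdh2 and Cdh3 and lower in 3 of 3 pairs for none, where 19.9% and 20.7% of all genes were. All differences are log2 values of light-damaged minus dark-adapted arrays. The median difference of the 9 was 0.02, with 5 above 0 and 4 below, and over all genes the median was -0.000094. In these bulk samples, fewer cells of a type and less RNA per cell cannot be told apart.

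**Figure D1:**
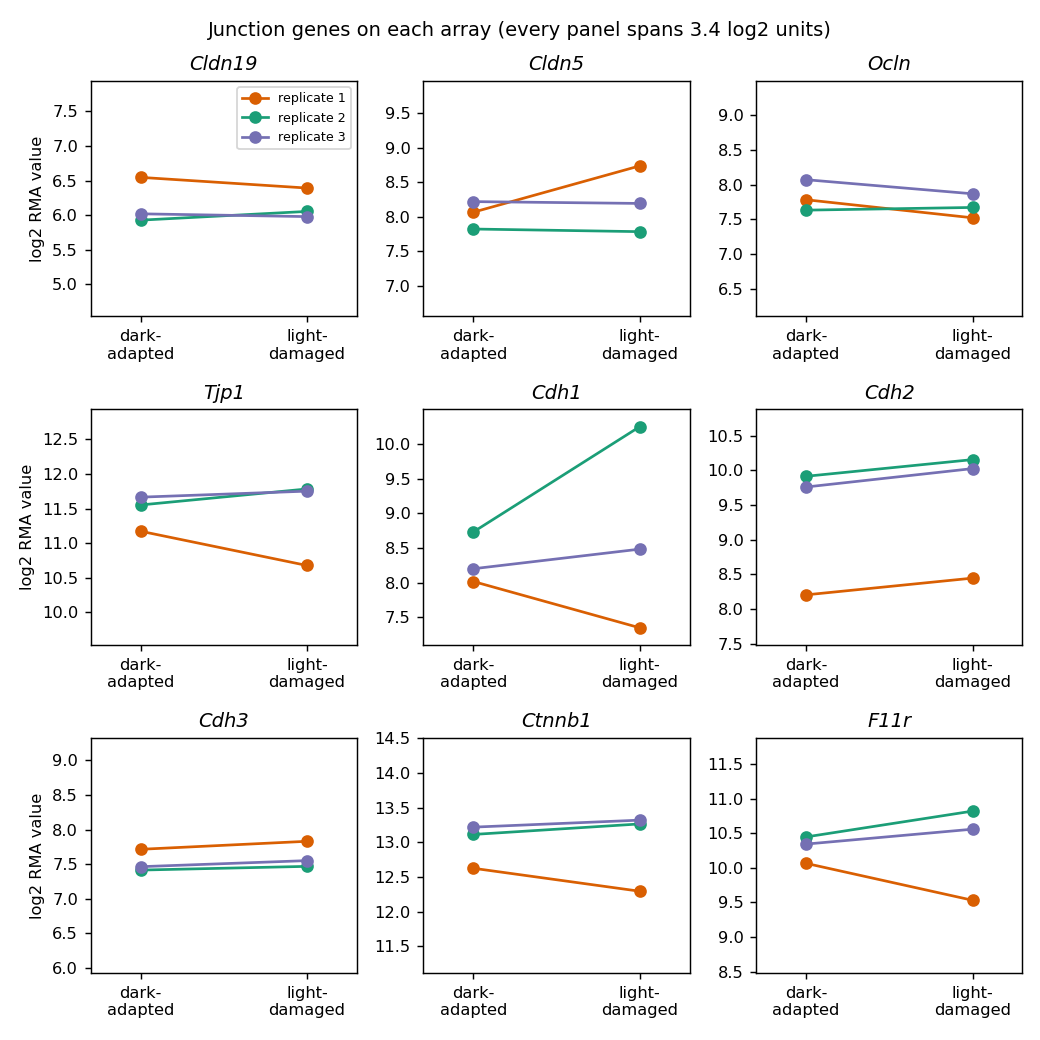
Log2 RMA values of each junction gene on the 6 arrays, dark-adapted at left and light-damaged at right, with a line joining the arrays of each replicate number. The replicate 1 arrays lie below the others for Tjp1, Cdh1, Cdh2, Ctnnb1 and F11r and above them for Cldn19 and Cdh3. Cdh1 also has a single high array at 10.25.

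The 95% intervals show how large a difference in the measured log2 values these arrays could hide. They do not bound the change in transcript where a probe set is dim and without a detection call, as for Cldn19. With the replicate block, 8 of the 9 intervals lay inside a 2-fold change in either direction. Leaving Cdh1 aside, the lowest bound was -0.42, for Tjp1, and the highest 0.57, for Cldn5, or 0.750-fold and 1.49-fold. The interval of Cdh1 ran from -0.49 to 1.24. Without the block the intervals were wider, and those of Cdh1 and Cdh2 ran from -1.33 to 2.09 and from -1.28 to 1.78.

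**Figure D2:**
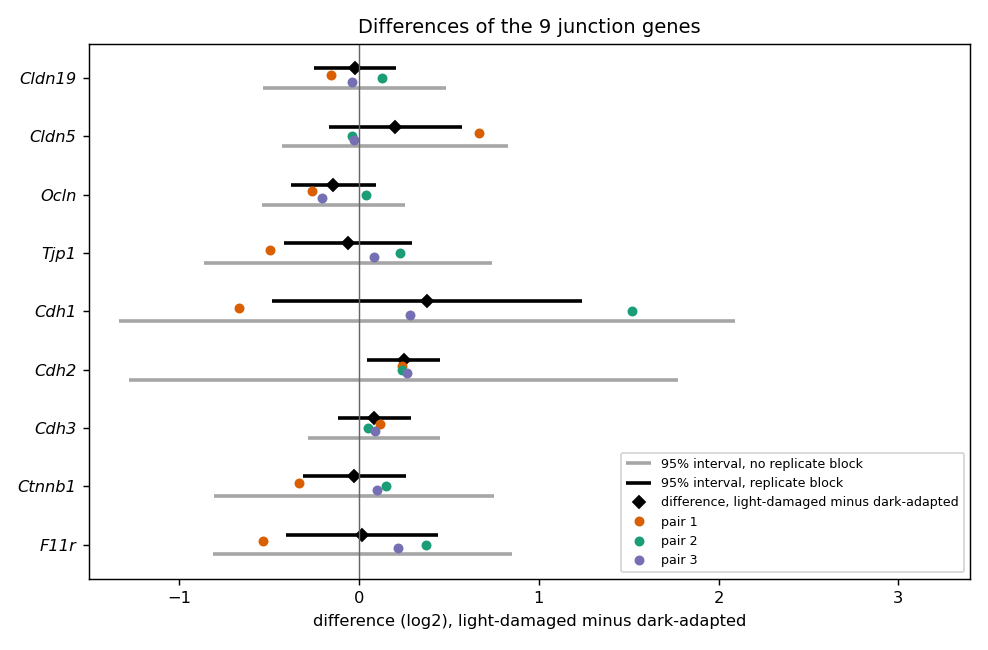
Log2 difference of each junction gene between light-damaged and dark-adapted arrays. Diamonds and black bars are the limma estimate and its 95% interval with the replicate block, grey bars the interval without it, and coloured points the 3 pairs; the pairs of Cdh2 lie at 0.24, 0.24 and 0.27 and those of Cdh1 spread from -0.67 to 1.52.

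Cldn19 encodes claudin-19, a barrier claudin of the RPE. Its single probe set was dim, with a mean of 6.15 at percentile 14.3 of all genes, and the deposited values carry no detection calls. Dark-adapted replicates 1, 2 and 3 gave 6.55, 5.93 and 6.02, and light-damaged replicates 1, 2 and 3 gave 6.39, 6.05 and 5.98. The replicate 1 array was the highest of its group in both groups, and the groups overlapped. The difference was -0.02 ± 0.10 (SE, n = 3 per group, limma adjusted p = 0.936).

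Cldn5 encodes claudin-5, the claudin of vessel walls. It measured 8.07, 7.82 and 8.22 in dark-adapted replicates 1 to 3 and 8.74, 7.79 and 8.19 in light-damaged replicates 1 to 3. Light-damaged replicate 1 stood above the other 5 arrays, which overlapped between groups. The difference was 0.20 ± 0.15 (limma adjusted p = 0.573), and without replicate 1 it was -0.03. Of 12 endothelial markers 1 rose, Vwf, the von Willebrand factor gene of vessel walls and platelets, and none fell, and without the block Vwf did not pass. The log2 of their summed level lay between 11.91 and 12.02 on dark-adapted and between 11.95 and 12.26 on light-damaged arrays, with light-damaged replicate 1 at 11.99. The means of the 12 over all arrays ran from 5.83 for Tie1 to 10.60 for Kdr, both endothelial receptor genes, with the adhesion genes Pecam1 and Cdh5 at 5.98 and 6.18. The part of these cells in the Cldn5 values was not tested.

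Ocln encodes occludin, a membrane protein of the tight junction strand. The values were 7.78, 7.63 and 8.07 in dark-adapted replicates 1 to 3 and 7.52, 7.67 and 7.87 in light-damaged replicates 1 to 3. The groups overlapped, and the light-damaged array was the lower in pairs 1 and 3. The difference was -0.14 ± 0.10 (limma adjusted p = 0.527), and the dimmer second probe set gave -0.06 ± 0.11.

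Tjp1 encodes ZO-1, which links claudins and occludin to actin. It was bright, at 11.17, 11.55 and 11.66 in dark-adapted replicates 1 to 3 and 10.68, 11.78 and 11.75 in light-damaged replicates 1 to 3. Replicate 1 was the lowest array of each group, and pair 1 differed by -0.49 where pairs 2 and 3 differed by 0.23 and 0.09. The difference was -0.06 ± 0.15 over all arrays (limma adjusted p = 0.891) and 0.16 without replicate 1 (adjusted p = 0.418).

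F11r encodes JAM-A, an immunoglobulin-like adhesion protein at the tight junction that binds ZO-1. The values were 10.06, 10.45 and 10.34 in dark-adapted replicates 1 to 3 and 9.53, 10.82 and 10.56 in light-damaged replicates 1 to 3. The light-damaged group held both the lowest and the highest array. The difference was 0.02 ± 0.18 (limma adjusted p = 0.975), with -0.53 in pair 1 and 0.37 and 0.21 in pairs 2 and 3. Without replicate 1 it was 0.29 (adjusted p = 0.141). The dimmer second probe set, an x_at set that can bind related transcripts, gave -0.03 ± 0.09.

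Ctnnb1 encodes beta-catenin, which binds the inner end of cadherins and also carries Wnt signals to the nucleus. It was the brightest of the 9 probe sets, at 12.63, 13.11 and 13.22 in dark-adapted replicates 1 to 3 and 12.29, 13.27 and 13.32 in light-damaged replicates 1 to 3. Replicate 1 was the lowest of each group, and the other 4 arrays lay within 13.11 to 13.32. The difference was -0.03 ± 0.12 (limma adjusted p = 0.942), and 0.13 without replicate 1. Its other probe sets gave -0.16 ± 0.21 and 0.13 ± 0.09.

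Cdh2 encodes N-cadherin, the cadherin of neural tissue that RPE cells also carry. It measured 8.20, 9.92 and 9.76 in dark-adapted replicates 1 to 3 and 8.44, 10.16 and 10.03 in light-damaged replicates 1 to 3. Each light-damaged array exceeded its dark-adapted partner by nearly the same amount, 0.24, 0.24 and 0.27, while the replicate 1 arrays of both groups lay over 1 unit below the rest, so the groups overlapped. The difference was 0.25 ± 0.08 or 1.19-fold, and it did not pass over all genes (limma unadjusted p = 0.0231, adjusted p = 0.174). The second probe set gave 8.47, 8.95 and 9.17 against 8.71, 9.66 and 9.69, a difference of 0.49 ± 0.11 that was higher in 3 of 3 pairs and did not pass over all probe sets either (limma unadjusted p = 0.00305, adjusted p = 0.0707). With the mean over both probe sets the difference was 0.37 (adjusted p = 0.0579). Without the block the unadjusted p of Cdh2 was 0.705.

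Cdh3 encodes P-cadherin, a cadherin found in RPE. It varied least of the 3 cadherins among the 9 genes, at 7.72, 7.42 and 7.46 in dark-adapted replicates 1 to 3 and 7.83, 7.47 and 7.55 in light-damaged replicates 1 to 3. The light-damaged array was higher in 3 of 3 pairs, by 0.05 to 0.12, and the groups overlapped. The difference was 0.09 ± 0.08 (limma adjusted p = 0.678). A dimmer second probe set had the opposite sign, -0.10 ± 0.11.

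Cdh1 encodes E-cadherin, the classical cadherin of epithelia. It had the largest spread of the 9, with 8.02, 8.73 and 8.20 in dark-adapted replicates 1 to 3 and 7.35, 10.25 and 8.48 in light-damaged replicates 1 to 3. Light-damaged replicate 2 lay 1.52 above its dark-adapted partner and light-damaged replicate 1 lay 0.67 below its own, so the light-damaged group held both the highest and the lowest array. The difference of 0.38 ± 0.36 did not pass (limma adjusted p = 0.664). It was 0.90 without replicate 1 (adjusted p = 0.0971) and -0.19 without replicate 2, so its sign rests on pair 2.

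As a list, lens genes were highest on the array where Cdh1 was highest, but they were not lowest where Cdh1 was lowest. The gene most like Cdh1 over the 6 arrays was Cd24a, which encodes a small surface glycoprotein, with a Pearson r of 0.997 and a value of 12.16 on light-damaged replicate 2 against 9.53 to 10.60 on the others. The r is a description, over arrays that share the difference between replicates. On the same array the lens crystallin genes Cryaa and Crygs reached 13.48 and 13.32, where their other arrays lay at 7.49 to 9.91 and at 6.82 to 9.04. The 19 lens markers measured of 22 listed are a list added after these values were seen. The log2 of their summed level was 15.997 on light-damaged replicate 2. It was 13.64 and 13.33 on light-damaged replicates 1 and 3, and 12.95 to 13.64 on the dark-adapted arrays. Of the 19 lens markers 1 rose with the block, Cryaa, none was called without it and none fell, and 18 had a difference above 0, with a median of 0.86. Of 11 surface epithelium markers measured of 12, also added afterwards, none passed, and the log2 of their summed level was 14.56 to 14.93 on dark-adapted arrays and 14.50, 15.26 and 14.49 on light-damaged replicates 1, 2 and 3. The corneal keratin gene Krt12 was at 14.00 ± 0.16 in dark-adapted and 13.96 ± 0.38 in light-damaged samples. E-cadherin is a cadherin of lens and surface epithelium too, and the part of these tissues in the Cdh1 values was not tested.

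**Figure D3:**
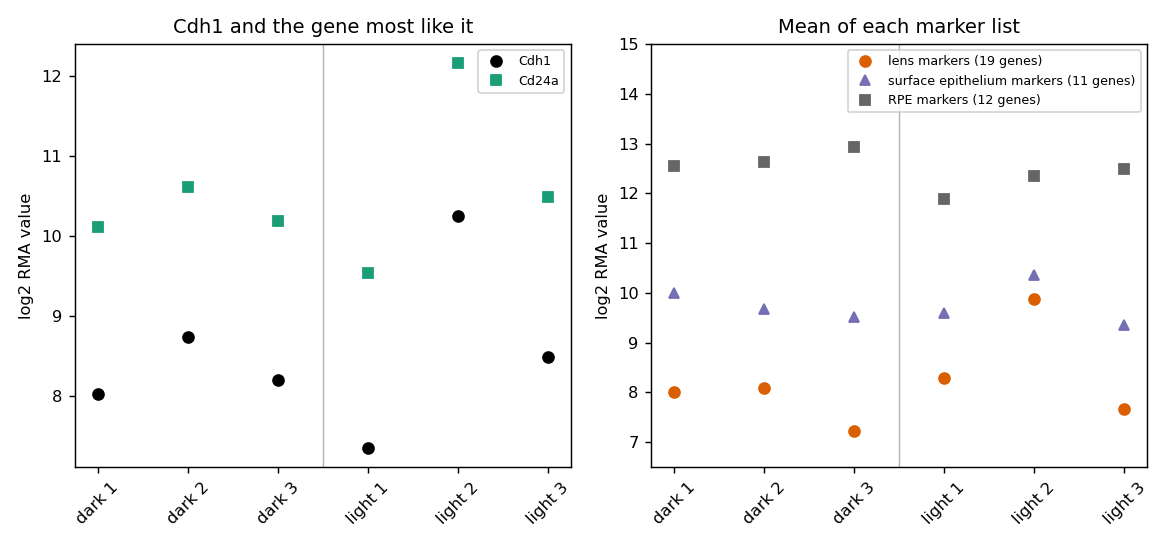
Left, log2 values of Cdh1 (circles) and Cd24a (squares) on each array, labelled by group and replicate. Right, mean log2 value of the lens, surface epithelium and RPE marker lists on the same arrays; Cdh1, Cd24a and the lens mean are all highest on light-damaged replicate 2, the lens mean at 9.87 against 7.22 to 8.28 elsewhere.

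For several of the 9 genes the replicate 1 arrays differed from the rest by more than the groups differed. Replicate 1 minus the mean of replicates 2 and 3 was -1.63 in dark-adapted and -1.65 in light-damaged samples for Cdh2. For Cdh1 it was -0.45 and -2.02, for Cldn19 0.57 and 0.38, and for Cdh3 0.28 and 0.32. Probe sets of the same transcript did not share 1 offset. The brightest probe set of Ctnnb1 had -0.54 and -0.999, and the second had -2.66 and -3.71, with log2 values of 7.45 and 6.59 on the replicate 1 arrays and 9.96 to 10.32 on the others. The Gapdh 3′ to 5′ difference moved with these offsets, and its part in them was not tested.

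**Figure D4:**
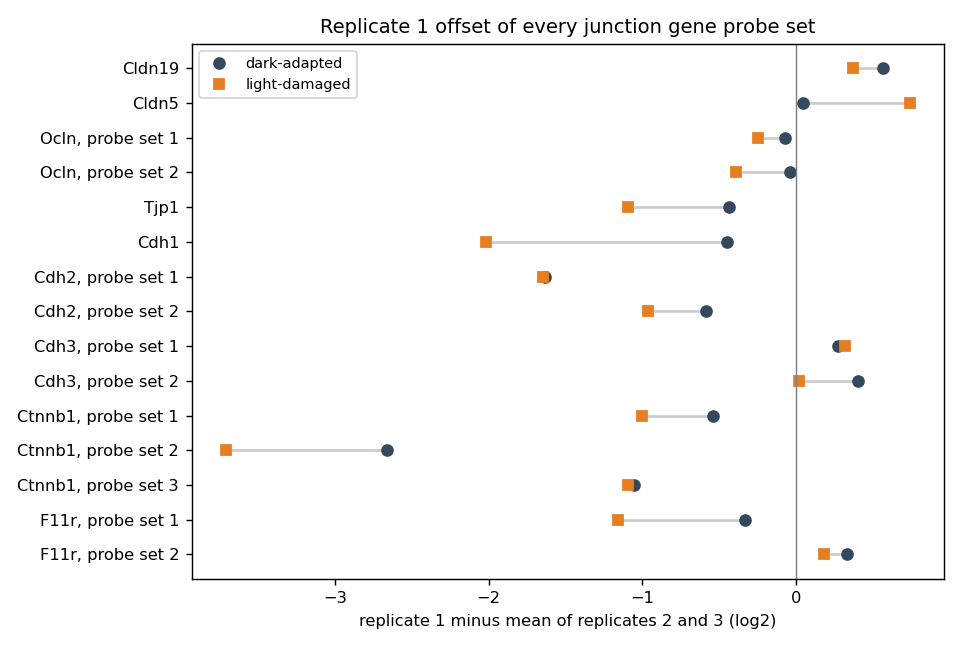
Replicate 1 minus the mean of replicates 2 and 3, on the log2 scale, for every probe set of the 9 junction genes, with circles for dark-adapted and squares for light-damaged samples. The offsets reach -3.71 for the second probe set of Ctnnb1 and lie above 0 in both groups for Cldn19, Cldn5, both Cdh3 probe sets and the second F11r probe set.

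The replicate 1 offset also entered the correlations between genes. Tjp1, Ctnnb1 and F11r, which all had their lowest values on light-damaged replicate 1, correlated with each other at Pearson r of 0.94 to 0.99, and Cdh3 correlated with Cldn19 at 0.87 and with Tjp1 at -0.90. These values describe 6 arrays that share the replicate 1 difference and are given without a test. Among all other named genes, the most like Ctnnb1 was Cldnd1 (r = 0.999), the most like Tjp1 Clint1 (0.999), the most like F11r Pld1 (0.998), the most like Cdh2 Zcchc2 (0.998) and the most like Cdh3 Yes1 (0.997). Slitrk3, Elob and Bpifa5 were the most like Cldn19, Ocln and Cldn5, at 0.995, 0.987 and 0.984.

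Other junction genes of the same pathway included some that changed. Of 99 such genes measured of 102 listed, 4 rose and 7 fell with the replicate block, where 3.07% of all genes rose and 1.92% fell, and the median difference was 0.01. No gene of the list was called without the block. With the replicate number as a random block 7 were called, without pairs 1, 2 and 3 in turn 13, 6 and 2, with array weights 18, and with the mean over all probe sets of a gene 4. All 11 genes had further probe sets, 24 in all, of which 11 had the same sign with an unadjusted p under 0.05 and 3 had the opposite sign.

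Among 26 other tight junction genes, 1 fell and none rose. Cldn1, which encodes claudin-1, a sealing claudin of many epithelia, fell by 1.09 on the log2 scale (-1.09 ± 0.21, limma adjusted p = 0.0378), with -1.75, -0.58 and -0.94 in pairs 1 to 3. Its 3 other probe sets, all dimmer, gave -0.16, -0.10 and -0.04, and with the mean over its probe sets the difference was -0.35 (limma adjusted p = 0.0894). Cldn1 also did not pass without the block, with a random block (adjusted p = 0.0794), without pair 3 (0.0965) or with a pseudocount of 16 (0.0517). Cldn2, which encodes a pore-forming claudin, and Jam3, of the same family as F11r, differed by -0.87 ± 0.20 and -0.65 ± 0.15 and did not pass (limma adjusted p = 0.0601 and 0.0710). For Cldn2 every light-damaged array was below every dark-adapted one, as for 3.72% of all genes.

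Of 16 apical polarity genes, 2 fell and none rose, and 12 had a difference below 0. Crb1, a photoreceptor and Müller glia polarity gene whose loss causes retinal degeneration, fell by 0.80 (adjusted p = 0.0273), and Mpdz, a scaffold with many PDZ domains, fell by 0.47 (adjusted p = 0.0465). The other probe set of Crb1 gave -0.17 and those of Mpdz -0.21, -0.16 and -0.0054. With the mean over probe sets Crb1 passed (limma adjusted p = 0.0414) and Mpdz did not (0.210). The kinase gene Prkcz had -0.40 ± 0.10 and did not pass. Beside them, 6 of 11 photoreceptor markers fell with the block and none without it, none rose, the median was -0.51, and the log2 of their summed level was 16.65 to 17.08 on dark-adapted and 16.21 to 16.81 on light-damaged arrays. Of 8 Müller glia markers 1 rose, Gfap, the glial filament gene, and none fell, and Gfap did not pass when the block was dropped. Their median was -0.25, 5 of 8 lay below 0, and the log2 of their summed level was 14.84 to 15.35 on dark-adapted and 14.39 to 15.08 on light-damaged arrays. The 8 include the bright gene Rlbp1, which is also on the RPE marker list. Their mean log2 value, in which each gene counts alike, differed by -0.28, -0.04 and 0.10 in pairs 1 to 3. The part of photoreceptors and Müller glia in the lower Crb1 was not tested.

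Of 20 other adherens junction genes, Cdh4, which encodes R-cadherin of the retina, fell by 0.53 (-0.53 ± 0.09, limma adjusted p = 0.0262) and none rose. The other probe sets of Cdh4, both dimmer, gave -0.31 and 0.11. With the mean over its probe sets the difference was -0.24 and did not pass (limma adjusted p = 0.133). Lmo7, whose protein links nectins to the cadherin complex, and the endothelial cadherin gene Cdh5 had 0.44 ± 0.11 and 0.27 ± 0.09 and did not pass. Ctnna1, the alpha-catenin that joins beta-catenin to actin, was at 13.03 ± 0.13 (SD) and 12.98 ± 0.09, a difference of -0.05. Of 12 desmosome and gap junction genes, Gjd2, which encodes the neuronal connexin 36, fell by 0.76 (adjusted p = 0.0499), with -0.09 by its second probe set. With the mean over its probe sets the difference was -0.43 and did not pass (limma adjusted p = 0.0887). Gjd2 also did not pass with a random block (0.125) or without pair 1 (0.0650) or pair 2 (0.0923). It passed without pair 3 (0.0462) and with array weights (0.0460). Pkp2, a desmosome plaque gene, had 0.44 ± 0.11 and did not pass.

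Most calls were among 19 genes of junctional actin and its regulators, of which 4 rose and 2 fell. Myh9, the heavy chain of non-muscle myosin IIA, rose 1.73-fold (0.79 ± 0.09, limma adjusted p = 0.00894), and its 4 other probe sets gave 0.23 to 0.87. Msn, which encodes moesin, a linker of membrane and actin, rose 1.55-fold, the guanine nucleotide exchange factor gene Arhgef2 1.40-fold and the GTPase gene Rhoa 1.36-fold, the latter both by s_at probe sets that can bind related transcripts. With other probe sets preferred to s_at and x_at sets, Arhgef2 passed at 0.61 (limma adjusted p = 0.0300). Rhoa did not pass there, at 0.31 (limma adjusted p = 0.273). With the mean over probe sets neither passed (limma adjusted p = 0.0507 and 0.122). The myosin light chain kinase gene Mylk fell by 0.64 and the exchange factor gene Arhgef18 by 0.63, while the 3 other probe sets of Arhgef18 gave -0.10 to 0.08. With the mean over probe sets Mylk passed (limma adjusted p = 0.0486). Arhgef18 did not pass there, at -0.17 (limma adjusted p = 0.356). Leukocytes hold much moesin and myosin IIA, and 11 of 12 macrophage and microglia markers rose, all 11 calls being lost when the block was dropped, with a median of 0.86 and a log2 summed level of 14.29 to 14.76 on dark-adapted and 14.78 to 15.32 on light-damaged arrays. Their part in these rises was not tested.

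None of 6 transcription factors known to repress cadherin genes passed. Tcf3, which encodes the E2A proteins, had 0.28 ± 0.09 (limma adjusted p = 0.170), Zeb2 0.18 ± 0.13 and Snai2 0.08 ± 0.10. Markers of the RPE itself were lower on light-damaged arrays. Of 12 RPE markers 3 fell with the block and none without it, none rose, all 12 had a difference below 0, and the median was -0.49. The log2 of their summed level was 16.88 to 17.23 on dark-adapted and 16.36 to 16.86 on light-damaged arrays, ranges that did not overlap.

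**Figure D5:**
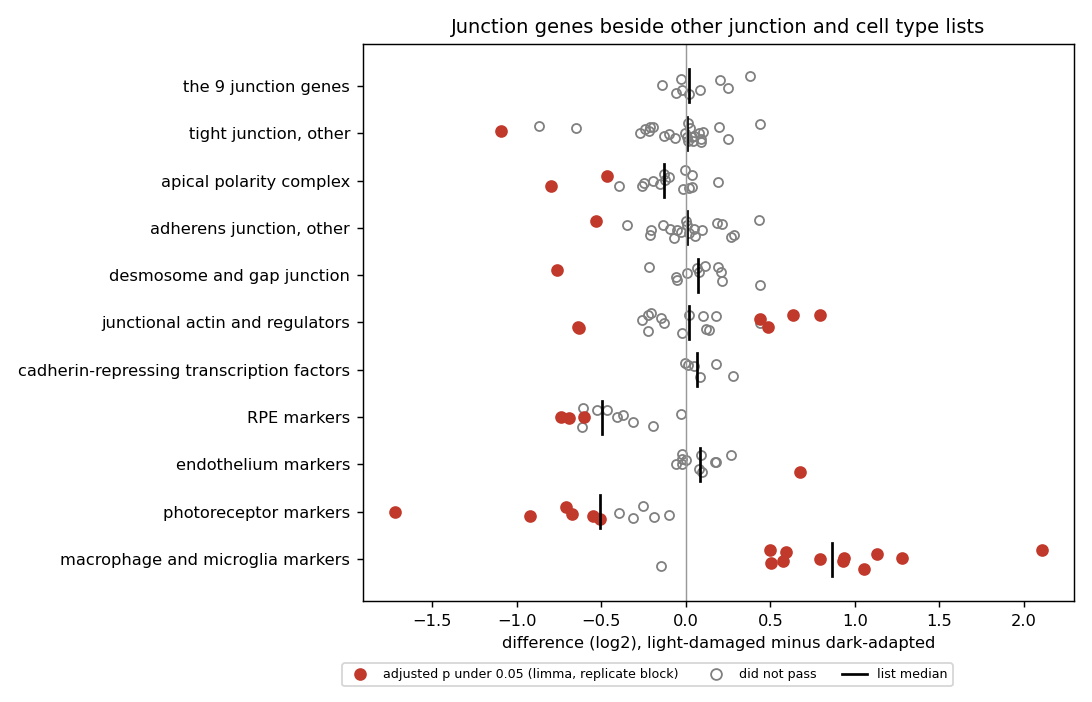
Log2 differences of single genes between light-damaged and dark-adapted arrays, by list, with filled points for genes at an adjusted p under 0.05 in limma with the replicate block and a bar at each list's median. The 9 junction genes centre on 0.02 with none filled, the RPE markers on -0.49 and the macrophage and microglia markers on 0.86.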

How the data were processed

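The authors deposited 1 log2 value for each probe set and array. Per the submitters' processing notes they used RMA, a method that removes background, brings arrays to a common distribution and combines the probes of a set; no version is given. The log2 scale was read from the values, which ran from 3.72 to 14.82 with array medians of 7.43 to 7.48. RMA compresses differences of very dim and very bright probe sets. Of 45101 probe sets, 34945 had exactly 1 gene symbol in the platform annotation, and 18193 genes remained, each by its probe set of the highest mean. Depth does not apply to arrays, and their number limits the precision.

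The comparison used limma 3.58.1 (R 4.3.3, two-sided, lmFit and eBayes), with the replicate number as a fixed block and 2 residual degrees of freedom, or 4 without it. The fit was checked on simulated data. Across genes, the departures of an array from its group mean correlated with those of its same-numbered partner at 0.89, 0.62 and 0.86, above 0.1 in all 3 pairs, so the numbers were taken as pairs; the labels do not state a shared animal or day. Dark-adapted replicate 2 correlated as well with light-damaged replicate 3 (0.65), so the pairing rests mostly on replicate 1.

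The members and the lists were chosen with earlier results of these data known, and the lens and surface epithelium lists after seeing the values. Named genes were all members and, in each junction list, the 3 of the smallest unadjusted p and any called gene. Also named were genes among the 3 of the highest mean in each marker list and the genes most like a member by Pearson r. Vwf, Tie1, Pecam1, Cdh5 as a marker, Gfap, Crygs, Ctnna1 and Krt12 were named after their values were seen. So were Nectin3, Dsp, Epcam, Lim2, Trp63 and Dsg1a.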

Additional observations from a re-analysis of the deposited data

How the results depend on the processing

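No junction gene was called under any of 21 alternatives, and the smallest adjusted p was 0.0579, for Cdh2 with the mean over probe sets. The number of all genes called was 908 with the replicate block and 9 without it, 1875 with array weights, and 3 to 1245 when replicates or single arrays were left out, the latter without the block. Of 189 values of the 9 genes, 158 kept their sign and 31 did not, all for genes that did not pass. Part of the 158 was fixed in advance. Dropping the block, a random block, other eBayes settings and a filter on mean level left every difference of the 9 genes as it was. Left-out replicates and arrays gave -0.15 to 0.17 for Cldn19, -0.047 to 0.43 for Cldn5, -0.25 to 0.30 for Tjp1, -0.40 to 1.05 for Cdh1, -0.30 to 0.80 for Cdh2, -0.021 to 0.18 for Cdh3, -0.21 to 0.31 for Ctnnb1 and -0.24 to 0.40 for F11r, while Ocln stayed below 0. With the mean over probe sets Cdh3 and F11r gave -0.0056 and -0.0077, and with array weights Tjp1 and Ctnnb1 gave 0.055 and 0.063. Without both replicate 1 arrays and without the block, a setting chosen after seeing the data, Cldn19, Cldn5, Tjp1 and Ctnnb1 gave 0.043, -0.032, 0.16 and 0.13. These equal the values without replicate 1 and with the block, because with complete pairs the block cannot alter a difference. They are no further check of the signs. The cause of these shifts was not tested. Background correction and array slides could not be varied from the deposited values. Without detection calls, signal over background is unknown, which limits dim probe sets such as that of Cldn19.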

Other observations

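Cdh1 was lower on the light-damaged array in pair 1 and higher in pair 2, and this was not particular to it. Among the 9 genes Cldn19, Ocln, Tjp1, Ctnnb1 and F11r had the same signs, and Cldn5, Cdh2 and Cdh3 did not. The share of all genes with these signs was not counted. Means of the other tight junction, other adherens junction, desmosome and gap junction, and junctional actin lists had these signs too. The apical polarity mean was lower in both pairs. A further 2 junction genes of epithelia with these signs were picked after their values were seen. The nectin gene Nectin3, which encodes an adhesion protein of adherens junctions, differed by -1.27, 1.26 and 0.03 in pairs 1, 2 and 3, and the desmosome gene Dsp, which encodes desmoplakin, by -0.85, 0.59 and -0.38. Neither passed (limma adjusted p = 0.996 and 0.729). Epcam, an epithelial adhesion gene, differed by -0.056, 0.0028 and -0.0035 in the same pairs. The lens gene Lim2 differed by -0.15, 1.99 and -0.44, and the squamous epithelium genes Trp63 and Dsg1a by -0.78, 1.10 and -0.25 and by -0.16, 1.06 and -0.32. Lim2 does not stand for its list. The mean of the lens list was higher in all pairs, by 0.27, 1.78 and 0.45. The mean of the surface epithelium list differed by -0.39, 0.69 and -0.16.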
